A study of Mus musculus with 10 samples.

Results

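Immediate early response genes were followed in the lumbar spinal cord of TDP-43 transgenic mice. The set holds 30 genes that were listed by symbol and matched to their mouse Ensembl identifiers. All 30 were found among the 22024 genes counted, and 29 were among the 15191 genes with enough counts to be tested. The M337V group, animals 1, 2, 3, 7 and 9 (n = 5), had a human TARDBP gene with the M337V mutation, which is linked to amyotrophic lateral sclerosis, on a bacterial artificial chromosome exchanged into the Rosa26 locus. The WT group, animals 8 and 10 (n = 2), had this construct without the mutation, and the nontransgenic group (NTg, n = 3, animals 4, 5 and 6) was labelled as carrying none. All mice were females aged 3 months on a C57BL/6 background, with littermates as controls per the labels, the mouse Tardbp gene was present in every group, and each animal gave 1 library of polyA RNA. The human gene was driven by its own sequences in the artificial chromosome and not by a promoter for 1 cell type. Each transgenic line came from targeted embryonic stem cells and is 1 insertion, and the labels do not say whether the animals were heterozygous or homozygous.

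Immediate early genes are transcribed within minutes of a stimulus without new protein synthesis. Calcium, cyclic AMP and MAP kinase signals reach their promoters through factors already present in the cell, such as CREB and SRF. Many of their products are transcription factors that act on later genes, and others, such as the MAP kinase phosphatases, switch the signal off again. In the nervous system they are widely read as marks of recent neuronal activity, injury or handling, and glia and blood vessel cells express many of them too.

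Library totals ran from 18724888 to 19571914 counts in M337V, 19424118 to 20932246 in WT and 19948913 to 21041474 in NTg. Human TARDBP had 2192 to 2723 counts in the M337V libraries, 2425 and 2335 in WT 8 and WT 10, and 1 and 4 in NTg 5 and NTg 6. The library labelled NTg 4 had 2415 counts (118 CPM, counts scaled to library size), against its label, so the counts of genes called and the main differences from NTg are also given without it. Neuronal markers summed to 7264 to 8836 CPM in M337V, 8044 and 9043 CPM in WT and 7209 to 8044 CPM in NTg, and none of the 8 was at 0. Posterior Hox genes, which mark the lumbar level and below, summed to 38.8 to 166 CPM in M337V, 12.6 CPM in WT 8, 219 CPM in WT 10 and 174 to 224 CPM in NTg. The labels name no batch and give only library numbers. M337V 1 to 3 are numbered TDP_10 to TDP_12. M337V 7 and M337V 9 are TDP_5 and TDP_7, beside WT 8 (TDP_6) and WT 10 (TDP_8), and NTg 4 to 6 are TDP_2 to TDP_4. No WT or NTg library is numbered with TDP_10 to TDP_12, so anything these numbers stand for cannot be told apart from genotype for those 3 animals.

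Levels differed widely between the genes. Jund, an AP-1 subunit that most cells express without a stimulus, was the highest per transcript length, with a mean of 65.7 CPM per kilobase over all 10 libraries. Jun followed at 14.0 CPM per kilobase, and then Gadd45g at 9.44, Klf6 at 9.25, Dusp6 at 7.64 and Egr1 at 7.57 CPM per kilobase. Fos, the gene most used as a mark of activity, had 5.95 CPM per kilobase. The low end held Egr3 at 0.332 and Egr4 at 0.272 CPM per kilobase. Fosl1 had 0 counts in M337V 1, 2, 3 and 7, in WT 8 and in the library labelled NTg 4, and 1 or 2 counts in each of the others. It did not pass the filter on low counts, so it was not tested, and each count of 0 allows up to 3 counts. The plot of level per length gives the order by genotype.

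**Figure D1:**
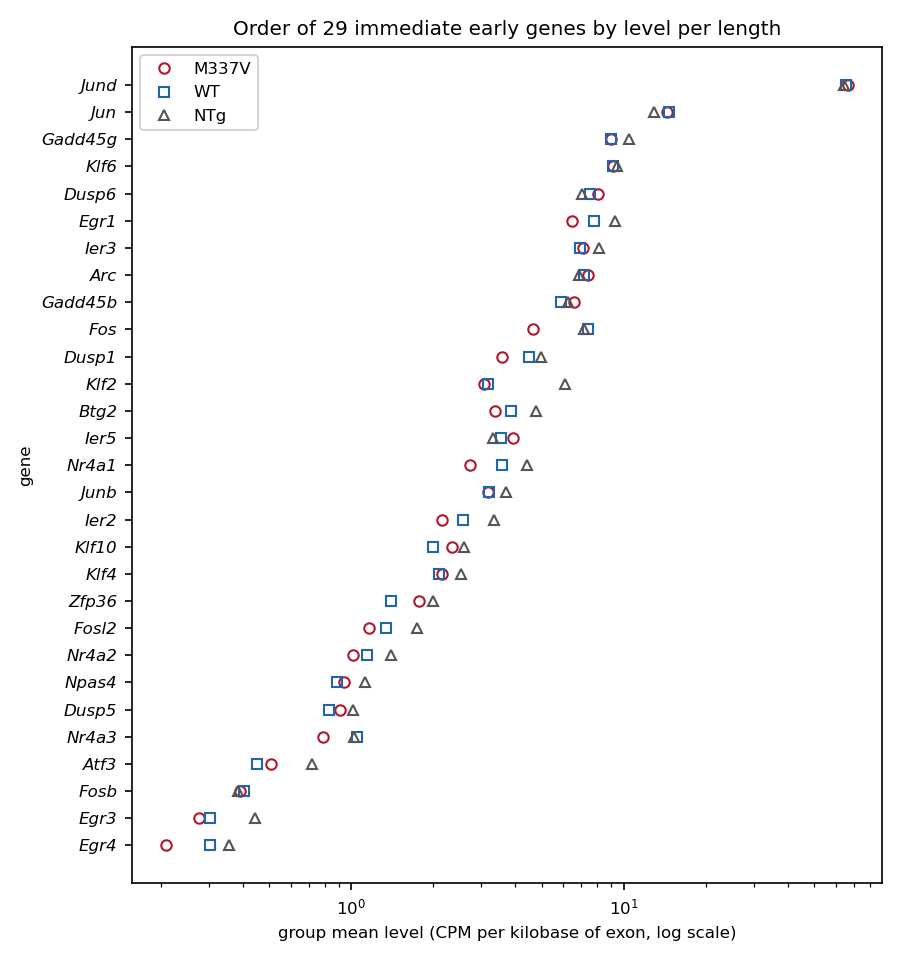
Mean level per kilobase of merged exons (CPM per kilobase, log axis) of the 29 tested immediate early genes, as group means of M337V (n = 5, circles), WT (n = 2, squares) and NTg (n = 3, triangles). Genes run down by their mean over all 10 libraries, from Jund at 65.7 to Egr4 at 0.272 CPM per kilobase.

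In M337V cords 2 of the 29 genes tested fell against NTg and none rose. They were Dusp1, a phosphatase that switches off MAP kinases, and Klf2, a transcription factor known best from endothelium under blood flow. Across all genes tested 4.29% passed the same threshold (adjusted p below 0.05, edgeR's quasi-likelihood test with Benjamini-Hochberg adjustment), 2.67% higher and 1.61% lower in M337V. That is 406 genes higher and 245 lower, against 402 higher and 80 lower once each library's trend over GC content and transcript length was removed. At an unadjusted p below 0.05, 10 of the 29 were lower and 0 higher, against 24.5% of all genes in either direction and 12.3% lower. The log2 difference was below 0 for 22 genes and above 0 for 7, with a median of -0.23, against -0.01 over all genes. That median was -0.26 without the library labelled NTg 4, -0.33 without M337V 7, -0.11 with M337V 1 to 3 left out and -0.42 with M337V 7 and 9 left out. With trends over GC content and length removed it was -0.11, against 0.04 over all genes. limma-voom with quality weights and DESeq2 each called 5 of the 29, the same Dusp1, Klf2, Fosl2, Nr4a1 and Ier2, against 8.66% and 9.8% of all genes. Without the library labelled NTg 4 only Dusp1 was called, against 1.14% of all genes. In 9 of the 29 every M337V library lay below every NTg library, against 8.61% of all genes. In 0 of them did every M337V library lie above, which held for 9.51% of all genes. With NTg 5 and NTg 6 alone these counts were 11 and 0 of the 29, against 13.6% and 13.5% of all genes. In bulk tissue, fewer cells of a type and less RNA per cell cannot be told apart. Values below are CPM in order of animal number, so that the first NTg value is that of the library labelled NTg 4.

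**Figure D2:**
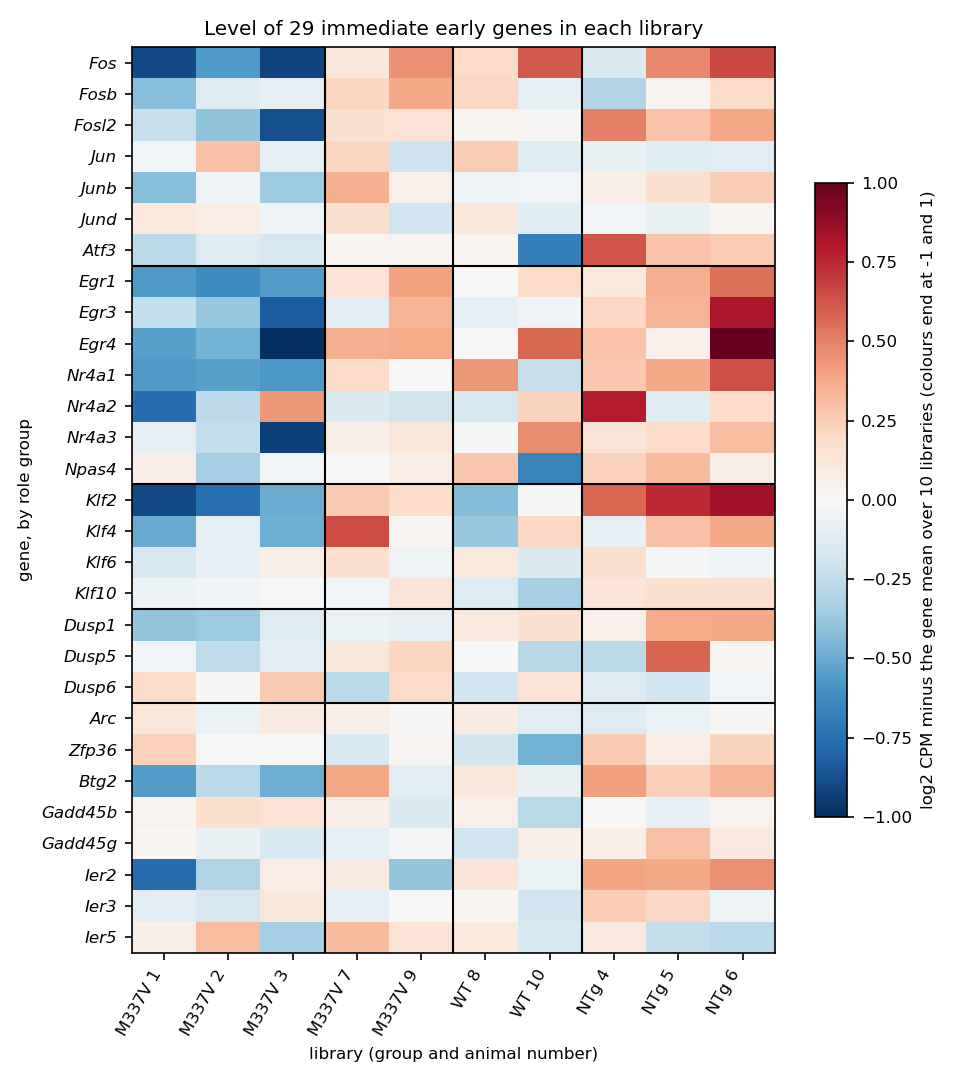
Level of each of the 29 tested immediate early genes in each of the 10 libraries, coloured by the distance of log2 CPM from the average of that gene (red above, blue below); columns are M337V, WT and NTg animals, and lines part the role groups. M337V 1 to 3 held the lowest value of 17 of the 29 genes, and the NTg libraries held the highest value of 18.

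The AP-1 family joins Fos and Jun proteins into dimers that bind DNA. Of its 7 genes tested none passed the threshold between M337V and NTg, and 4 had a log2 difference below 0. Fos had 7.01, 8.80, 6.90, 14.1 and 17.8 CPM in M337V, 14.9 and 19.9 CPM in WT, and 11.8, 18.2 and 20.5 CPM in NTg. Its M337V 1 to 3 lay below all other libraries, while M337V 7 and 9 lay above the library labelled NTg 4 and below NTg 5 and NTg 6. The log2 difference was -0.62 ± 0.30 (SE, adjusted p = 0.221), and -0.82 (adjusted p = 0.184) without the library labelled NTg 4. Fosl2, a partner of Jun that is induced later than Fos, had 10.9, 9.71, 7.00, 14.3 and 14.2 CPM in M337V, 13.1 and 13.0 CPM in WT, and 18.2, 15.7 and 16.8 CPM in NTg. Every M337V and WT library was below every NTg library for Fosl2, with a log2 difference of -0.59 ± 0.18 (SE) that did not pass (adjusted p = 0.0837, or 0.211 with -0.53 without the library labelled NTg 4). Jun, the partner most AP-1 dimers share, had 43.4, 54.3, 41.9, 51.6 and 38.4 CPM in M337V, 52.8 and 40.7 CPM in WT, and 42.1, 40.9 and 40.9 CPM in NTg. Jund had 118, 115, 105, 122 and 95.5 CPM in M337V, 119 and 100 CPM in WT, and 107, 104 and 111 CPM in NTg. For both genes the groups overlapped, and the log2 differences between M337V and NTg were 0.15 ± 0.12 (SE, adjusted p = 0.452) for Jun and 0.05 ± 0.08 (SE, adjusted p = 0.738) for Jund. Junb averaged 7.29 ± 1.63 CPM in M337V (SD, n = 5), against 8.48 ± 0.528 CPM in NTg (SD, n = 3). Fosb had 1.79 to 3.12 CPM over all libraries, and Atf3, a stress-induced member of the wider family, averaged 1.09 ± 0.0962 CPM in M337V (SD, n = 5), against 1.55 ± 0.231 CPM in NTg (SD, n = 3).

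EGR proteins are zinc finger factors, NR4A proteins are orphan nuclear receptors and NPAS4 is a factor of active neurons. All 7 genes of this group had a log2 difference below 0 between M337V and NTg, from -0.77 to -0.25, and none passed the threshold. Egr1 had 22.0, 21.1, 22.3, 36.2 and 43.0 CPM in M337V, 32.8 and 37.1 CPM in WT, and 35.1, 42.0 and 47.7 CPM in NTg. M337V 1 to 3 lay together below every other library. Among the NTg libraries, M337V 7 lay above only the one labelled NTg 4, and M337V 9 lay between NTg 5 and NTg 6 (log2 difference between M337V and NTg -0.52 ± 0.22, SE, adjusted p = 0.163). Without the library labelled NTg 4 it was -0.63 (adjusted p = 0.191). Nr4a1 had 7.73, 7.83, 7.68, 13.0 and 11.5 CPM in M337V, 15.4 and 9.74 CPM in WT, and 13.8, 14.9 and 17.8 CPM in NTg. It was lower in every M337V library than in any NTg library, by 0.70 ± 0.20 on the log2 scale (SE), with an adjusted p of 0.0656 (-0.78 and 0.106 without the library labelled NTg 4). Its relative Nr4a3 also had every M337V library below every NTg library, at 4.71 ± 1.20 CPM in M337V (SD, n = 5), against 6.13 ± 0.384 CPM in NTg (SD, n = 3). Egr3, Egr4 and Nr4a2 averaged 1.22, 0.448 and 4.10 CPM in M337V and 1.95, 0.765 and 5.67 CPM in NTg, and their groups overlapped. Npas4 had 3.17 to 4.21 CPM in M337V and 4.19 to 4.98 CPM in NTg.

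The KLF genes encode zinc finger factors. Klf2 (ENSMUSG00000055148, on the plus strand at chr8:72319033-72321656, GRCm38) had 3.63, 4.02, 4.81, 8.11 and 7.69 CPM in M337V, 5.02 and 6.72 CPM in WT, and 10.1, 11.4 and 12.2 CPM in NTg. All 7 libraries of the transgenic groups lay below the 3 NTg libraries, and within M337V animals 1 to 3 lay below 7 and 9. Klf2 was 1.98-fold lower in M337V than in NTg (log2 difference -0.99 ± 0.24, SE, adjusted p = 0.0438). The adjusted p was 0.0776 without the library labelled NTg 4, 0.0640 to 0.0978 without M337V 1, M337V 2 or M337V 3, and 0.0921 and 0.192 without NTg 5 or NTg 6. It was 0.0508 with robust dispersions and 0.0765 with trends over GC content and length removed (log2 difference -0.85), and ran from 0.00305 to 0.288 over all 23 alternatives. Klf6, the KLF gene with the highest level, had 36.1, 38.3, 42.3, 45.5 and 39.2 CPM in M337V, 43.6 and 36.7 CPM in WT, and 45.4, 40.0 and 39.2 CPM in NTg. Its groups overlapped throughout (log2 difference -0.04 ± 0.09, SE, adjusted p = 0.796), and the sign turned without the library labelled NTg 4 (0.03) or without M337V 1 (under 0.01). Klf4 averaged 6.59 ± 2.36 CPM in M337V (SD, n = 5), against 7.72 ± 1.24 CPM in NTg (SD, n = 3). Klf10 averaged 9.77 ± 0.512 CPM in M337V (SD, n = 5), against 10.9 ± 0.168 CPM in NTg (SD, n = 3).

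Endothelial markers, set beside Klf2 because endothelium expresses it, summed to 261 to 359 CPM in M337V, 248 to 309 CPM in WT and 302 to 332 CPM in NTg. None of these 11 markers was at 0, 10 of the 11 had a lower mean in M337V than in NTg, and 0 passed the threshold in that comparison. Other markers did pass between M337V and NTg, in the fit that included the library labelled NTg 4. Oligodendrocyte markers summed to 30991 to 38270 CPM in M337V and 23003 to 27434 CPM in NTg, and 5 of 8 rose. Neutrophil markers summed to 47.6 to 129 CPM in M337V, 479 CPM in the library labelled NTg 4, and 143 and 224 CPM in NTg 5 and NTg 6, and 4 of 7 fell. Skeletal muscle markers summed to 23.2 to 147 CPM in M337V, 121 CPM in the library labelled NTg 4, and 525 and 818 CPM in NTg 5 and NTg 6, and 2 of 7 fell. Of 8 mural cell markers 2 fell, Acta2 and Des, genes that other muscle cells express too. The microglial marker P2ry12 rose, as 1 of 7. The part of these cell types in the early gene differences was not tested.

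Dusp1 (ENSMUSG00000024190, on the minus strand within chr17:26505590-26562128, GRCm38) had 10.4, 10.6, 12.5, 13.0 and 12.9 CPM in M337V, 14.6 and 15.2 CPM in WT, and 14.2, 17.6 and 17.7 CPM in NTg. The M337V libraries did not overlap with those of NTg or of WT. Dusp1 was 1.39-fold lower in M337V than in NTg (log2 difference -0.47 ± 0.10, SE, adjusted p = 0.0347), and this stayed past the threshold without the library labelled NTg 4 (log2 difference -0.57, adjusted p = 0.0409). The adjusted p was 0.0571 to 0.0834 without M337V 1, M337V 2 or M337V 3, 0.0885 without NTg 5 and 0.183 without NTg 6. With trends over GC content and length removed it was 0.0923 (log2 difference -0.34), and it ran from 0.00496 to 0.303 over all 23 alternatives. Ergic1 lies on the opposite strand within the same span and had 15046 counts in all libraries together. The library kit keeps the strand, but the setting used in counting is not given in the sources used here, so reads of the overlap may be shared. The same limit holds for Junb, which overlaps Prdx2 (34886 counts) on the opposite strand. It also holds for Jund with Gm11175 (350 counts) and for the untested Fosl1 with Ccdc85b (9198 counts). Dusp6, a phosphatase with a preference for ERK, had 27.1, 23.9, 28.5, 19.7 and 27.1 CPM in M337V, 20.8 and 26.2 CPM in WT, and 21.7, 20.8 and 23.3 CPM in NTg. Its groups overlapped, with a log2 difference of 0.20 ± 0.12 (SE, adjusted p = 0.316). Dusp5, a nuclear ERK phosphatase, averaged 2.24 ± 0.283 CPM in M337V (SD, n = 5), against 2.5 ± 0.768 CPM in NTg (SD, n = 3).

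The remaining 8 genes encode proteins with other tasks, and none of them passed the threshold between M337V and NTg. Btg2, an antiproliferative protein that acts on mRNA decay, had 7.06, 8.64, 7.42, 13.5 and 9.67 CPM in M337V, 11.2 and 9.84 CPM in WT, and 13.8, 12.3 and 13.1 CPM in NTg. M337V 7 reached the NTg range and the other M337V libraries did not (log2 difference -0.50 ± 0.18, SE, adjusted p = 0.115, and -0.45 with 0.259 without the library labelled NTg 4). Ier2, a nuclear protein, had 2.25, 3.11, 4.02, 4.08 and 2.91 CPM in M337V, 4.19 and 3.65 CPM in WT, and 5.04, 4.98 and 5.26 CPM in NTg. Every M337V and WT library lay below every NTg library for Ier2 (log2 difference between M337V and NTg -0.64 ± 0.18, SE, adjusted p = 0.0665, and -0.64 with 0.140 without the library labelled NTg 4). Gadd45g, a growth arrest and DNA damage protein, had 11.2, 10.5, 9.93, 10.3 and 10.9 CPM in M337V, 9.57 and 11.5 CPM in WT, and 11.6, 13.5 and 11.8 CPM in NTg. The M337V and NTg libraries did not overlap for Gadd45g, although the log2 difference was only -0.22 ± 0.09 (SE, adjusted p = 0.163).

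Arc, whose protein acts at synapses and in receptor endocytosis, had 23.8, 20.9, 23.4, 22.8 and 22.1 CPM in M337V, 23.2 and 20.3 CPM in WT, and 20.03, 20.9 and 22.0 CPM in NTg. The groups overlapped, and the log2 difference between M337V and NTg was 0.11 ± 0.07 (SE, adjusted p = 0.380). Ier3, a protein tied to cell survival, had 7.73, 7.40, 8.99, 7.80 and 8.32 CPM in M337V, 8.42 and 7.26 CPM in WT, and 9.89, 9.56 and 8.06 CPM in NTg. Its groups overlapped too. Zfp36, which binds AU-rich elements and speeds mRNA decay, averaged 6.17 ± 0.605 CPM in M337V (SD, n = 5), against 6.93 ± 0.465 CPM in NTg (SD, n = 3). Gadd45b averaged 10.5 ± 0.868 CPM in M337V (SD, n = 5), against 9.93 ± 0.395 CPM in NTg (SD, n = 3), and Ier5 averaged 12.9 ± 2.20 CPM in M337V (SD, n = 5), against 10.9 ± 1.60 CPM in NTg (SD, n = 3).

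**Figure D3:**
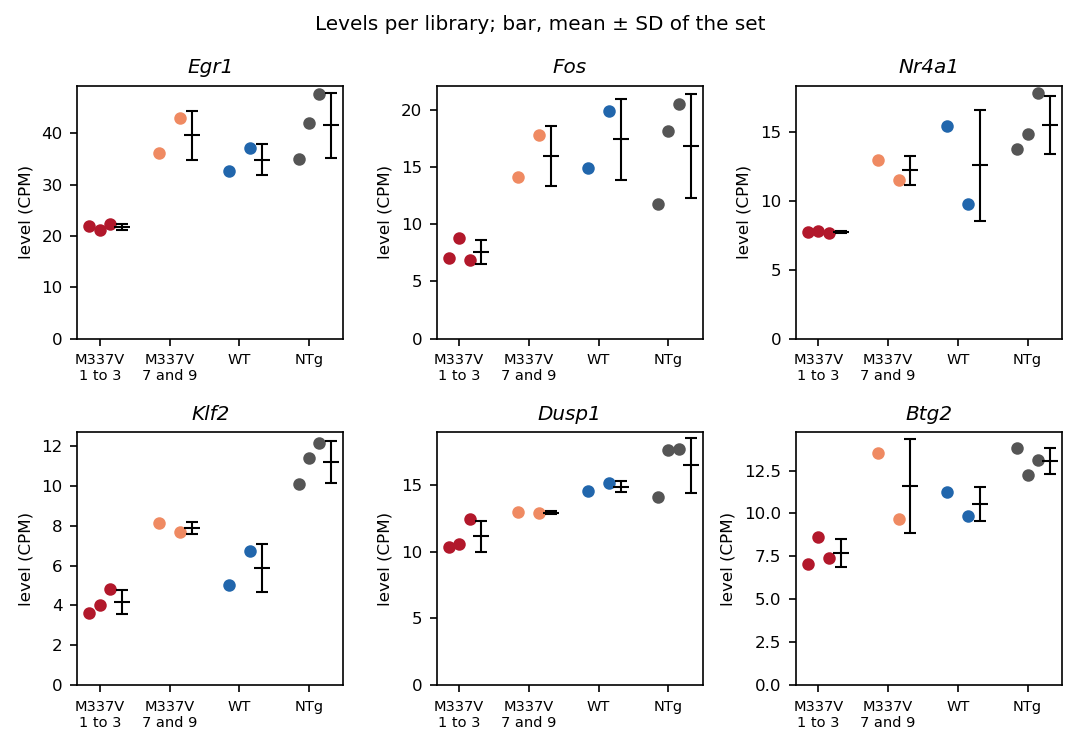
Level (CPM) of 6 immediate early genes, 1 point per library, with the mean ± SD of each set beside its points: M337V 1 to 3, M337V 7 and 9, WT and NTg. For Fos and Egr1 the points of M337V 1 to 3 lie below all others, and those of M337V 7 and 9 lie higher, below NTg 5 and NTg 6 for Fos and, for Egr1, 1 of them below both, while for Klf2 and Dusp1 all M337V points lie below all NTg points.

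The M337V animals were then compared with each other by library number. Earlier results of these same data had shown that this split matters for these genes, so its values are a description and not an independent test. Of the 29 genes 1, Egr1, fell in M337V 1 to 3 (TDP_10 to TDP_12) against M337V 7 and 9 (TDP_5 and TDP_7) and none rose. Over all genes tested 0.145% passed the threshold, with 0.079% higher and 0.0658% lower. Egr1 averaged 21.8 ± 0.587 CPM in M337V 1 to 3 (SD, n = 3) and 39.6 ± 4.85 CPM in M337V 7 and 9 (SD, n = 2), which gave a log2 difference of -0.86 ± 0.12 (SE, adjusted p = 0.0310). The call was lost without any 1 of the 5 M337V libraries, with adjusted p from 0.0696 without M337V 3 to 0.281 without M337V 9, without NTg 5 (0.0586) and with trends over GC content and length removed (0.0731). It ran from 2.95e-07 to 0.281 over all 19 alternatives. At an unadjusted p below 0.05, 10 of the 29 genes were lower and 0 higher in M337V 1 to 3, against 10.4% of all genes in either direction and 5.85% lower. The log2 difference was below 0 for 22 genes and above 0 for 7, with a median of -0.21, against 0.00 over all genes. limma-voom called Egr1 and Klf2 (0.639% of all genes), and DESeq2 called these with Fos and Fosl2 (0.974%).

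Fos showed the widest gap of the genes above 1 CPM. It averaged 7.57 ± 1.07 CPM in M337V 1 to 3 (SD, n = 3) and 16.0 ± 2.63 CPM in M337V 7 and 9 (SD, n = 2), which gave a log2 difference of -1.08 ± 0.23 (SE) that did not pass (adjusted p = 0.125). Klf2 averaged 4.15 ± 0.598 CPM in M337V 1 to 3 (SD, n = 3) and 7.90 ± 0.298 CPM in M337V 7 and 9 (SD, n = 2), which gave a log2 difference of -0.93 ± 0.17 (SE, adjusted p = 0.0849). The log2 differences of Nr4a1 (-0.66), Fosl2 (-0.63), Btg2 (-0.59) and Junb (-0.47) were also below 0, with adjusted p from 0.180 to 0.298. Dusp1 differed less between the 2 sets than Fos and Egr1 (log2 difference -0.21 ± 0.12, SE, adjusted p = 0.577), although M337V 1 to 3 all lay below M337V 7 and 9. Jun, Jund, Arc, Gadd45g, Ier3 and Nr4a2 had log2 differences of at most 0.05 in size between these sets.

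Set against all 7 other libraries, M337V 1 to 3 held the 3 lowest values of 10 of the 29 genes, against 3.06% of all genes tested. These counts too describe a split chosen with earlier results known. The 10 were Fos, Fosl2, Egr1, Egr3, Egr4, Nr4a1, Nr4a3, Klf2, Dusp1 and Btg2. They held the 3 highest values of 0 of the 29, against 2.35% of all genes. With the library labelled NTg 4 left out the counts were again 10, of the same genes, and 0, against 3.46% and 2.87% of all genes. Against M337V 7 and 9 alone, M337V 1 to 3 were all lower for 15 of the 29, where 14.9% of all genes were. They were all higher for 0 of the 29, where 15.8% of all genes were. The lowest of the 10 libraries was M337V 1, M337V 2 or M337V 3 for 17 of the 29 genes and for 28.1% of all genes. The highest was an NTg library for 18 of the 29 and for 36.4% of all genes. M337V 1 held the lowest value of 9 genes, M337V 3 of 7 and M337V 2 of 1, and WT 10 held that of 7.

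Endothelial markers moved with this split. Their sum was 261 to 274 CPM in M337V 1 to 3 and 322 and 359 CPM in M337V 7 and 9. All 11 had a lower mean in M337V 1 to 3, and 1, Cdh5, passed the threshold (log2 difference -0.70 ± 0.11, SE, adjusted p = 0.0443). Neutrophil markers summed to 47.6 to 80.7 CPM in M337V 1 to 3 and 78.4 and 129 CPM in M337V 7 and 9, with 7 of 7 lower on average and 0 past the threshold. Oligodendrocyte markers summed to 35188 to 38270 CPM in M337V 1 to 3 and 32847 and 30991 CPM in M337V 7 and 9, and 0 of 8 passed the threshold. Posterior Hox genes summed to 38.8 to 125 CPM in M337V 1 to 3 and 166 and 145 CPM in M337V 7 and 9. Of these 11 genes 9 had a lower mean in M337V 1 to 3, 6 were at 0 in some library and 0 of the 10 tested passed. Erythroid markers summed to 551 to 870 CPM in M337V 1 to 3 and 660 and 3470 CPM in M337V 7 and 9, with 5 of 5 lower on average and 0 past the threshold. Neuronal markers overlapped, at 7264 to 8836 CPM in M337V 1 to 3 and 7822 and 7942 CPM in M337V 7 and 9. Schwann cell markers also overlapped and spread widely, at 221, 365 and 1468 CPM in M337V 1 to 3 and 580 and 730 CPM in M337V 7 and 9. Meningeal fibroblast markers did so too, at 138, 190 and 503 CPM in M337V 1 to 3 and 436 and 259 CPM in M337V 7 and 9. The library labelled NTg 4 had the highest sums of both sets, 2052 CPM (Schwann cell) and 839 CPM (meningeal). The part of these cell types and of the cord level in the split was not tested.

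The comparison of M337V with NTg depended on which M337V animals were in it. The animals were left out by the same split, chosen with earlier results known. With M337V 7 and 9 left out, 7 of the 29 genes fell against NTg and none rose, against 7.46% of all genes called and 3.49% called lower. They were Klf2 (log2 difference -1.43, adjusted p = 0.00618), Fos (-1.15, adjusted p = 0.0189), Nr4a1 (-0.99, adjusted p = 0.0162), Egr1 (-0.93, adjusted p = 0.00647), Fosl2 (-0.87, adjusted p = 0.0168), Btg2 (-0.76, adjusted p = 0.0133) and Dusp1 (-0.56, adjusted p = 0.0257). The same 7 were called with the library labelled NTg 4 left out as well, a refit added after these values were seen, against 2.68% of all genes, with adjusted p from 0.00209 (Egr1) to 0.0414 (Fosl2). With M337V 1 to 3 left out, 0 of the 29 were called, as were 0.0197% of all genes, and again 0 (0.0263% of all genes) with the library labelled NTg 4 left out too. The log2 differences with the 3 NTg libraries were then -0.07 for Fos, -0.06 for Egr1, -0.16 for Btg2 and -0.23 for Fosl2. Without the library labelled NTg 4 they were -0.27, -0.18, -0.13 and -0.18. Of the 7 genes above, with the 3 NTg libraries, Klf2 (-0.49, adjusted p = 0.261), Nr4a1 (-0.33, adjusted p = 0.505) and Dusp1 (-0.34, adjusted p = 0.303) kept a difference of over 0.3 in size without passing. Outside these 7, Ier2 and Egr3 stayed over 0.3 in size under all 23 alternatives, Ier2 from -0.72 to -0.50 and Egr3 from -1.07 to -0.34. Nr4a2 and Atf3 were lower without M337V 1 to 3 too. Nr4a2 averaged 4.02 CPM in M337V 7 and 9 and 5.67 CPM in NTg, and Atf3 1.19 and 1.55 CPM. For both genes M337V 7 and 9 lay below every NTg library. The median of the 29 with M337V 1 to 3 left out was -0.11. All of these refits share NTg libraries. Fewer M337V libraries were left without M337V 1 to 3, with 2 against 3. M337V 7 and 9 both lay below all 3 NTg libraries for 11 of the 29 genes, against 18.9% of all genes. For M337V 1 to 3 this held for 16 of the 29, against 17.3% of all genes.

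**Figure D4:**
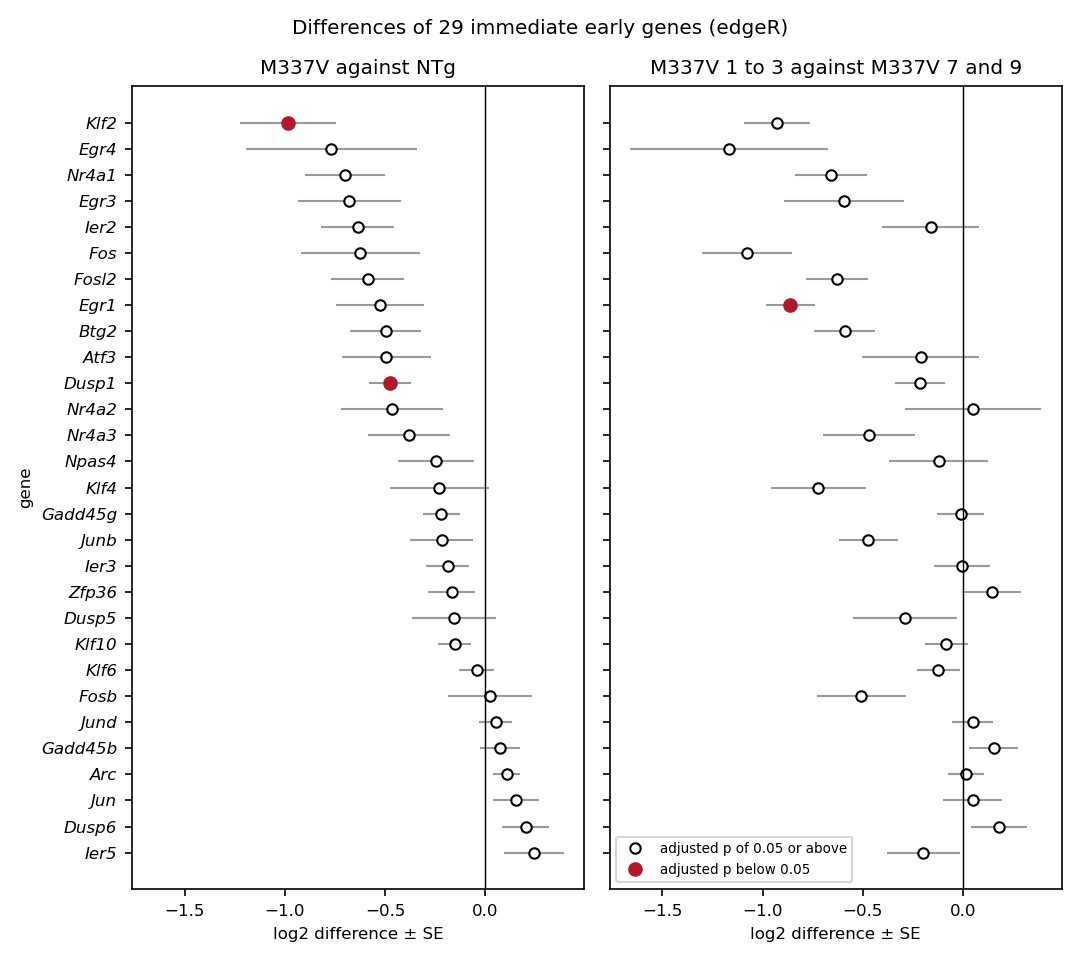
Log2 difference ± SE of the 29 tested immediate early genes in M337V against NTg (left) and in M337V 1 to 3 against M337V 7 and 9 (right), in the same order of genes; filled points passed the threshold. Each panel holds 22 genes below 0, with Klf2 at -0.99 on the left and Fos at -1.08 on the right.

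WT cords, with the human gene but no mutation, were compared with NTg next, and 0 of the 29 genes passed the threshold, against 5.64% of all genes (545 higher, 3.59%, and 312 lower, 2.05%, or 751 and 143 with trends over GC content and length removed). At an unadjusted p below 0.05, 4 were lower and 0 higher, against 25.3% of all genes in either direction and 12.5% lower. The median log2 difference of the 29 was -0.23, against -0.02 over all genes, and -0.06, against 0.06, with trends over GC content and length removed. DESeq2 called 1 of the 29 (Klf2, with 11.2% of all genes called) and limma-voom 0 (1.42%). Klf2 averaged 5.87 ± 1.20 CPM in WT (SD, n = 2) and 11.2 ± 1.04 CPM in NTg (SD, n = 3). This gave a log2 difference of -0.93 ± 0.31 (SE, adjusted p = 0.0925, and -0.996 with 0.139 without the library labelled NTg 4). That was close in size to the -0.99 of M337V against the same NTg libraries, but it was -0.73 without WT 8 and -1.15 without WT 10. Klf10 averaged 8.35 ± 0.850 CPM in WT (SD, n = 2) and 10.9 ± 0.168 CPM in NTg (SD, n = 3), which gave a log2 difference of -0.38 ± 0.11 (SE, adjusted p = 0.0566, and -0.39 with 0.107 without the library labelled NTg 4). For Zfp36 the means were 4.86 ± 0.674 CPM in WT (SD, n = 2) and 6.93 ± 0.465 CPM in NTg (SD, n = 3), which gave a log2 difference of -0.51 ± 0.15 (SE, adjusted p = 0.0659, and -0.47 with 0.158 without the library labelled NTg 4). Both WT libraries lay below all NTg libraries in 10 of the 29 genes, against 22.1% of all genes, and above them in 0, against 19.6%. With NTg 5 and NTg 6 alone they lay below in 14 of the 29, against 27.8% of all genes, and above in 1, against 24.2%. Without the library labelled NTg 4 the count of early genes called was again 0, with 1.9% of all genes called. Markers of other cells differed between WT and NTg too, in the fit that included the library labelled NTg 4. Oligodendrocyte markers summed to 37557 and 33705 CPM in WT and 23003 to 27434 CPM in NTg, and 6 of 8 rose. Neutrophil markers summed to 25.9 and 89.0 CPM in WT, 479 CPM in the library labelled NTg 4, and 143 and 224 CPM in NTg 5 and NTg 6, and 4 of 7 fell. Of 11 endothelial markers, set beside Klf2, 1 fell, Egfl7 (log2 difference -0.47, adjusted p = 0.0356). Mural cell markers summed to 215 and 169 CPM in WT and 226 to 282 CPM in NTg, and 2 of 8 fell, Acta2 and Myh11. The microglial marker P2ry12 rose, as 1 of 7, and the part of these cell types in the early gene differences was not tested.

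Between M337V and WT, which the series describes as differing by the mutation, 0 of the 29 genes and 0% of all genes passed the threshold. At an unadjusted p below 0.05, 1 gene was lower and 2 were higher in M337V, against 6.66% of all genes. DESeq2 called 29 genes in all (0.191%) and limma-voom 0, and neither called an early gene. Dusp1, with 11.9 ± 1.28 CPM in M337V (SD, n = 5), against 14.9 ± 0.425 CPM in WT (SD, n = 2), had the smallest p (log2 difference -0.33 ± 0.12, SE, adjusted p = 0.728). Fos had the lowest difference, at 10.9 ± 4.85 CPM in M337V (SD, n = 5), against 17.4 ± 3.54 CPM in WT (SD, n = 2), with -0.67 ± 0.33 on the log2 scale (SE, adjusted p = 0.762). Among the libraries numbered TDP_5 to TDP_8, which hold both genotypes, Fos had 14.1 and 17.8 CPM in M337V 7 and 9, and 14.9 and 19.9 CPM in WT 8 and 10, with a log2 difference of -0.13 (adjusted p = 0.946). Egr1 had 36.2 and 43.0 CPM in M337V 7 and 9, and 32.8 and 37.1 CPM in WT 8 and 10. Among these libraries Klf2 had 8.11 and 7.69 CPM in M337V, above the 5.02 and 6.72 CPM in WT (log2 difference 0.42, adjusted p = 0.688). This fit had M337V 1 to 3 left out, and 0 of the 29 genes and 0% of all genes were called in it.

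Genes that work upstream and downstream of the early genes were counted from lists drawn up with earlier results of these data known. Of the 100 genes of the 5 lists tested 7 passed between M337V and NTg, 4 higher and 3 lower, against 4.29% of all genes (2.67% higher and 1.61% lower). Of 17 upstream transcription factors tested, 0 passed between M337V and NTg, and the median log2 difference of the list was -0.09. Of 18 upstream kinases 1 rose, Rps6ka5, a kinase that phosphorylates CREB and histones, at 49.9 ± 1.89 CPM in M337V (SD, n = 5), against 42.6 ± 1.96 CPM in NTg (SD, n = 3), with a log2 difference of 0.23 (adjusted p = 0.0438). Of 17 AP-1 partners and feedback inhibitors tested 3 rose. Nab1, a repressor of EGR proteins, had 63.3 ± 2.39 CPM in M337V (SD, n = 5), against 48.8 ± 1.86 CPM in NTg (SD, n = 3), which gave a log2 difference of 0.38 (adjusted p = 0.0118). Spry2 and Spred1, inhibitors of the pathway from growth factor receptors to ERK, had log2 differences of 0.29 (adjusted p = 0.0405) and 0.27 (adjusted p = 0.0218). Of 12 late response neuronal genes, such as Bdnf, 0 passed.

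Of 36 other early response genes tested 3 fell in M337V against NTg and none rose. Per1, a clock gene with a CREB-responsive promoter, had 26.9, 22.7, 26.9, 35.1 and 39.6 CPM in M337V, 32.6 and 43.1 CPM in WT, and 39.1, 53.7 and 60.6 CPM in NTg. M337V 1 to 3 lay below all other libraries for Per1, as they did for Egr1 (log2 difference between M337V and NTg -0.76 ± 0.18, SE, adjusted p = 0.0412). Per2, a second clock gene, had 14.6, 11.9, 11.1, 12.7 and 14.1 CPM in M337V, 15.07 and 15.004 CPM in WT, and 17.3, 19.8 and 21.5 CPM in NTg. Both transgenic groups lay below NTg for Per2, and M337V 1 to 3 overlapped with M337V 7 and 9 (log2 difference between M337V and NTg -0.60 ± 0.10, SE, adjusted p = 0.0189). Arl4d, a small GTPase, had 7.83, 7.14, 8.41, 9.98 and 12.1 CPM in M337V, 9.00 and 17.6 CPM in WT, and 12.9, 22.0 and 23.3 CPM in NTg (log2 difference between M337V and NTg -1.10 ± 0.24, SE, adjusted p = 0.0336). Without NTg 6 none of the 7 calls of these lists between M337V and NTg was left (adjusted p from 0.0797 to 0.203), and the same held with M337V 1 to 3 left out (0.145 to 0.355). Without the library labelled NTg 4 the calls of Rps6ka5 and Spry2 were lost (adjusted p = 0.0597 and 0.0591), and without M337V 2 only that of Nab1 was left. Leaving out M337V 1, M337V 3 or NTg 5 lost those of Rps6ka5, Per1, Arl4d and Spry2 (0.0564 to 0.111), and leaving out M337V 7 lost that of Rps6ka5 (0.0534). With trends over GC content and length removed the calls of Rps6ka5, Per1 and Arl4d were lost (0.0526 to 0.0920).

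Between WT and NTg 8 of the 100 genes of these lists passed, 4 higher and 4 lower, against 5.64% of all genes (3.59% higher and 2.05% lower). Nab1 (log2 difference 0.37, adjusted p = 0.0123), Rps6ka5 (0.40, adjusted p = 0.0130), Spred1 (0.27, adjusted p = 0.0282) and Homer1, a synaptic scaffold gene (0.32, adjusted p = 0.0252), rose. Camk2a, a calcium-dependent kinase of neurons (-0.85, adjusted p = 0.0107), Nab2, a second repressor of EGR proteins (-0.61, adjusted p = 0.0194), Penk, the enkephalin precursor (-0.44, adjusted p = 0.0178), and Crtc1, a coactivator of CREB (-0.37, adjusted p = 0.0309), fell. With trends over GC content and length removed the calls of Crtc1, Homer1, Penk, Nab2 and Spred1 were lost (adjusted p from 0.0630 to 0.156), and without NTg 6 only the call of Camk2a was left. Without the library labelled NTg 4 those of Crtc1 and Nab2 were lost (adjusted p = 0.0847 and 0.0537), and without NTg 5 those of Homer1 and Spred1 (0.0566 to 0.0598). Without WT 8 4 of the 8 were lost (0.0516 to 0.0685) and without WT 10 5 of the 8 (0.0691 to 0.173). Between M337V and WT and between M337V 1 to 3 and M337V 7 and 9 0 genes of these lists passed.

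Promoters are shown for 4 of the early genes. Cyclic AMP and calcium signals reach many early genes through the CREB site (CRE, TGACGTCA) or its core TGACG, and these signals were not measured here. Each sequence is the 250 bases before the start that RefSeq gives (GRCm38.p6), on the gene's strand. Capitals mark a core on either strand, a whole CRE or the TATA box TATAAA. Dusp1 and Klf2 were the called genes of M337V against NTg, and Fos and Nr4a1 were chosen after their values were seen.
Dusp1: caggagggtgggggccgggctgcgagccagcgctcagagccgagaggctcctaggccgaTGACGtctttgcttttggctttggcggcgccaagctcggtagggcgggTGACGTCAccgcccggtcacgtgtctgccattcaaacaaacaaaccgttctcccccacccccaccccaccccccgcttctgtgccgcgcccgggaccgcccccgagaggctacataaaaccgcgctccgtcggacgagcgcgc
Klf2: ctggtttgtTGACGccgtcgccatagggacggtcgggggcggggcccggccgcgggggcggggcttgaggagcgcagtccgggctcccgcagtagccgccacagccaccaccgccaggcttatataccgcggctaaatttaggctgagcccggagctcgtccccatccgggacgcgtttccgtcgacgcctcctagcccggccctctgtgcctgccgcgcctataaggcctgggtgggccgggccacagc
Fos: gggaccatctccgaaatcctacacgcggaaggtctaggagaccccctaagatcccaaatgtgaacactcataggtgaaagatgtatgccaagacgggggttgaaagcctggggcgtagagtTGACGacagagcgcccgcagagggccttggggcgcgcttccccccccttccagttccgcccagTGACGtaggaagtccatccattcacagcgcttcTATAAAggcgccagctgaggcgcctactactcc
Nr4a1: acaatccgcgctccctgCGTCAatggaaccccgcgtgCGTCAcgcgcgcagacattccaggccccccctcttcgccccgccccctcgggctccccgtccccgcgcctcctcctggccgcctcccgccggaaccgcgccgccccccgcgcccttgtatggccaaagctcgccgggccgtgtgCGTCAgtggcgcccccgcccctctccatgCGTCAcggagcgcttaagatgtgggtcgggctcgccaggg
These are chr17:26508473-26508722 on the minus strand for Dusp1, and chr8:72318812-72319061, chr12:85473640-85473889 and chr15:101266596-101266845 on the plus strand for Klf2, Fos and Nr4a1. The windows of Dusp1 and Nr4a1 lie within the span of longer annotated transcripts of the same genes, and the last bases of the Klf2 window lie past the start that GENCODE gives. Counted from -1 at the base before the start, Dusp1 has a core at -191 and a whole CRE from -143 to -136, and Klf2 has 1 core at -241. Fos has 2 cores, at -129 and -66, and a TATA box at -33. Nr4a1 has 4 cores on the opposite strand, at -233, -213, -69 and -40.

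The table used holds promoters of 24 of the 30 genes, and motifs were searched on both strands over 250 bases before to 50 after the start. Fosl1, Egr1, Egr3, Klf10, Arc and Ier2 have no entry and were not searched. Sites outside the window could not be found, so a missing match does not show that a gene lacks a site. The CRE core was present in 14 of the 24 (58.3%), against 20.8% of the 32851 promoters of the table. The whole CRE, which contains the core, was present in 2, Btg2 and Dusp1 (8.33%, against 1.79% of all). The CArG box bound by SRF was present in Dusp5 and Zfp36 (8.33%, against 1.63%), the letters TATAAA anywhere in the window in 5 (20.8%, against 13.6%) and the GC box GGGCGG in 19 (79.2%, against 35.7%). TATAAA began at -46 in Gadd45b, -33 in Fos and -27 in Gadd45g. In Nr4a2 it lay at -164 on the opposite strand, and in Junb past the start, from 1 to 6. The AP-1 site TGANTCA was found in 0, against 7.81% of all. Of the 10 genes lowest in M337V 1 to 3, 8 have a promoter in the table, and 7 of these hold the core, with Fosl2 as the exception. Of the other 20 genes, 16 have one and 7 of these hold it. The 10 genes were picked by their levels in these same libraries, so the contrast is a description and not a test. A match is a description of these letters and not a measured binding site. The 32851 promoters were not matched to those of the early genes in base composition, and its part in these shares was not tested.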

How the data were processed

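PolyA RNA of 10 lumbar cords was sequenced as stranded read pairs, per the labels' protocols. The deposited values are raw whole-number read counts per gene, made by the authors and not normalized. The submitters' processing notes name the aligner STAR 2.4.2a, Subread 1.4.6 with featureCounts, the trimmer Trimmomatic 0.32, FastQC 0.11.2, Picard 2.6.0, Salmon 0.8.2, and R 3.3.0 with DESeq2 1.14.1, and do not say what each was run for. Which build, annotation and strand setting the counting used is not given in the sources used here. Names and coordinates came from GENCODE on GRCm38 by Ensembl identifier (21774 named, 250 not).

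Libraries were scaled by TMM, filterByExpr took out 6833 low genes (minimum count 10 and total 15, by group), and edgeR 4.0.16 in R 4.3.3 fitted 1 quasi-likelihood model over all 10 libraries. Benjamini-Hochberg adjustment ran over all 15191 genes. CPM are TMM-scaled. The 4 comparisons were each transgenic group against NTg, M337V against WT, and, with the M337V mean replaced by 2 means, M337V 1 to 3 against M337V 7 and 9. A further 2 fits left out M337V 1 to 3 or M337V 7 and 9, and 2 more, added after the data were seen, left out NTg 4 as well. Totals of 18724888 to 21041474 counts set the counting error, and a count of 0 allows up to 3 counts (counting error only). The labels make each library 1 animal, so p-values measure the spread between animals and their dissections together. The fit was tested on simulated data with known changes, and no pair of libraries was a copy (chi-square over its degrees of freedom was 4.87 or more, in genes with 20 counts or more).

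The alternatives were RLE size factors, no filter, a minimum of 1 CPM in the mean of each group, fits of only the groups compared, limma-voom with weights for library quality (limma 3.58.1), DESeq2 1.42.0, robust dispersions, removal of GC and length trends through offsets (prior count 2), each library left out in turn, and leaving out both NTg 4 and WT 8. The members, lists and tests, and the split of the M337V animals by library number, were chosen with earlier results of these data known. Values in every library are given for called members and for the 2 members of each role group with the highest level per length, and of each related list up to 3 called genes per direction and comparison are named. The other members given in full (Fos, Fosl2, Btg2, Ier2 and Arc) and Junb were chosen after their values were seen. Promoters are from RefSeq (GRCm38.p6).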

Additional observations from a re-analysis of the deposited data

Results flagged for a closer look

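Among the M337V libraries 2 values stood far from the other 4. Npas4, a transcription factor of active neurons, had 3.17 CPM in M337V 2 and 3.92 to 4.21 CPM in the other M337V libraries. Klf10, a transcription factor induced by TGF-beta, had 10.7 CPM in M337V 9 and 9.36 to 9.72 CPM in the other M337V libraries. The gap to the nearest library was 0.721 of the whole range for Npas4 and 0.724 for Klf10, against a critical value of 0.710 for 5 samples. All 29 tested genes were examined in this way in M337V, and chance alone gives such a value in about 1 in 20 groups.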

How the results depend on the processing

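No paired analysis was possible because the groups share no animal number. Between M337V and NTg the count of early genes called, 2, was 5 by limma-voom and by DESeq2, 1 with robust dispersions, 0 with GC and length trends removed, 1 without both NTg 4 and WT 8, 0 with M337V 1 to 3 left out and 7 with M337V 7 and 9 left out, and again 0 and 7 with NTg 4 left out too (added after the data were seen). Leaving out single libraries gave 0 (M337V 1, M337V 2, M337V 3, NTg 5 or NTg 6) to 5 (M337V 7). Between WT and NTg the count of 0 became 1 by DESeq2, and between M337V and WT it was 0 under all 21 alternatives. Between M337V 1 to 3 and M337V 7 and 9 the count of 1 became 2 with the compared groups alone, by limma-voom and with robust dispersions, 4 by DESeq2, 0 with GC and length trends removed and 4 without both NTg 4 and WT 8. Leaving out single libraries gave 0 (any M337V library or NTg 5) to 2 (NTg 4, WT 8 or WT 10). The log2 difference of Klf6 between M337V and NTg, -0.04, ran from -0.084 (M337V 7) to 0.027 (NTg 4) without single libraries, turning to 0.00085 without M337V 1, and was 0.025 without both NTg 4 and WT 8 and 0.038 with M337V 1 to 3 left out (0.10 with NTg 4 left out too). The cause of these changes was not tested.

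Over all genes the 651 calls of M337V against NTg were 1035 with the compared groups alone, 1315 by limma-voom, 1488 by DESeq2, 432 without both NTg 4 and WT 8, 3 with M337V 1 to 3 left out and 1133 with M337V 7 and 9 left out, and 2 (NTg 6) to 1062 (WT 8) without single libraries. The 857 of WT against NTg were 239 with the compared groups alone, 215 by limma-voom, 1702 by DESeq2, 133 without both NTg 4 and WT 8, and 73 (NTg 6) to 1079 (M337V 3) without single libraries. The 0 of M337V against WT were 29 by DESeq2, 1 with no filter or robust dispersions and 0 to 3 without single libraries. The 22 between M337V 1 to 3 and M337V 7 and 9 were 59 with the compared groups alone, 97 by limma-voom, 148 by DESeq2, 93 without both NTg 4 and WT 8, and 1 (M337V 2 or M337V 7) to 64 (WT 8) without single libraries. With 2 or 3 animals in most groups, a p that misses the threshold does not show that levels were alike. Genes near 1 CPM or below, such as Egr4 with 3 to 24 counts a library, are limited by depth.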
